A study of Drosophila melanogaster with 2 samples.

Results

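The nuclear genes for the respiratory chain and the ATP synthase were taken by symbol from the Release 6 annotation of Drosophila melanogaster: every protein-coding gene on 2L, 2R, 3L, 3R, 4 or X whose symbol starts with ND-, COX, UQCR, Sdh or ATPsyn. This gave 88 of 13945 protein-coding genes. The rule used symbols only, but it was set with earlier results of these data known. By prefix, 40 belong to complex I, 8 to complex II, 9 to complex III, 16 to complex IV and 15 to complex V, the ATP synthase. The study mapped binding of Atf-2 by ChIP-seq, that is, sequencing of immunoprecipitated chromatin, in mixed-sex whole embryos collected at 0 to 24 h. All embryos came from a transgenic line, Atf-2-GFP, in which green fluorescent protein is joined to the C-terminal end of Atf-2, and an antibody to GFP recovered the chromatin. There was 1 group with 2 biological replicates, numbered 2 and 3, so no condition could be compared with another, and what drives the transgene is not given in the sources used here. Embryos of all stages and cell types were mixed, and control libraries were not analysed here.

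Complexes I to IV carry electrons from NADH and succinate to oxygen in the inner mitochondrial membrane and, except complex II, pump protons, and complex V uses the proton gradient to make ATP. Most subunits are encoded in the nucleus and a few in mitochondrial DNA, so nuclear and mitochondrial products are assembled together. In flies many of these nuclear genes have a duplicate, named with an L for "like", and duplicates of this kind are often expressed mainly in the testis. Atf-2 is a basic leucine zipper factor that acts downstream of p38 stress signalling, and the motif known for its family is the cAMP response element (CRE).

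Each gene was described by the ChIP-seq summits within 500 bp of any of its transcription start sites (TSSs). A summit is the strongest point of a region, and its signal is the value deposited by the authors for that region. An IDR peak is a region that passed the authors' threshold on the irreproducible discovery rate, and there are 3265 of them with signals from 84.6 upwards. The pooled list and the list of each replicate hold 30000 regions each, with signals down to 23.3 in the pooled list, and a region in them is not a call. Each list has its own scale, so a value is read only against other values of the same list, and the number of reads behind it is unknown.

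The sequences at the summits are shown first for a leading IDR peak of complexes I, II and IV, because these are the strongest peaks of their complex for which a sequence is printed. They are on dm6, 5′ to 3′ on the strand of the member, and capitals mark a motif that was searched. The ND-ASHI window is chrX:6679251-6679451 on the minus strand with the summit at base 101 and TATAAA in capitals. The COX5A window is chr3R:11819431-11819547 on the plus strand with the summit at base 101, cut to the stretch outside untranslated and coding sequence. The printed stretch holds no searched motif. The part cut off holds TATAAA and CAACACTG, centred 26.5 and 54.5 bp from the summit. The SdhC window is chr3R:11210086-11210246 on the minus strand with the summit at base 61 and the DNA replication-related element (DRE), TATCGATA, in capitals.
ND-ASHI: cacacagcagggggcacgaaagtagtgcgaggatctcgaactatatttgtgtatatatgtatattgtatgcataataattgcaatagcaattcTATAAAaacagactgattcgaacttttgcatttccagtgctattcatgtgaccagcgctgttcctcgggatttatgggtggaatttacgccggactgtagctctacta
COX5A: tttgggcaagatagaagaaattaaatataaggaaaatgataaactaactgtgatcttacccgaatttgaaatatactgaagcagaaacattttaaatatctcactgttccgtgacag
SdhC: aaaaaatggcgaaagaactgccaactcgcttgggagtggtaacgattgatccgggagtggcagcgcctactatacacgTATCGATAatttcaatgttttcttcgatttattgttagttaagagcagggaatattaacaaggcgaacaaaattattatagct

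Shorter stretches are shown for 6 of the 7 other members whose summit window, 100 bp on each side, held a searched motif, because they show which motifs lie at these summits and which do not. ND-51 (chr2L:6062779-6062819, minus strand) has an E-box, CAGCTG. ND-SGDH (chr3L:12138645-12138685, minus strand) and ND-B17 (chr2L:15751219-15751259, minus strand) have TATAAA, which in ND-SGDH overlaps a second copy on the other strand, so the capitals run over both. ATPsynbeta (chr4:1030988-1031028, plus strand) has TATAAA on the other strand, so the capitals read TTTATA. ATPsynE (chr3R:14327040-14327069, plus strand), the strongest of complex V, has the DRE, and COX6B (chrX:19744422-19744451, minus strand) has CAACACTG, an octamer that was frequent in IDR peaks of these data in an earlier analysis. The 7th, ND-MWFE, has TATAAA centred 43.5 bp from its summit, and its sequence is not printed.
ND-51: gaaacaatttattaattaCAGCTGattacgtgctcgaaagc
ND-SGDH: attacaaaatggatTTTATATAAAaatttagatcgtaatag
ND-B17: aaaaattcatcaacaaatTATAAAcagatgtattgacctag
ATPsynbeta: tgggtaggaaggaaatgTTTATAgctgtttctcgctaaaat
ATPsynE: ccaatacaacTATCGATAgccgcctgtcag
COX6B: tcgcacgctggcCAACACTGgccaactcta

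An IDR summit lay within 500 bp of a TSS in 15 of the 88 members, or 17.0%, beside 14.9% of all 13945 protein-coding genes. The shares are close, and their order turned when a peak counted only for the gene with the nearest TSS, with 8 members (9.09%) beside 1538 of all genes (11.0%). A region of any strength in the pooled list was present at 59 members, or 67.0%, beside 51.1% of all genes. The median pooled signal of the strongest promoter region was 44.1 at members with a region and 51.4 at all genes with one. With genes without a region counted as 0 the order turned, to 31.0 for members and 24.1 for all genes. Among genes with an IDR summit the median signal was 121 in members and 140 in all genes. No region in the pooled list or in either replicate list was found for 22 of the 88 members, beside 5325 of all 13945 genes.

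By complex, an IDR summit was found at 8 of 40 genes of complex I (20%), 1 of 8 of complex II (12.5%), none of the 9 of complex III, 4 of 16 of complex IV (25%) and 2 of 15 of complex V (13.3%). The strongest peaks belonged to complexes I and IV, and the strongest gene of complex III reached 45.3, below the weakest IDR peak. The genes counted include 24 copies named with an L, none of which had an IDR summit. These copies are spread unevenly, with the most in complex IV, so the shares and their order would differ without them. Groups this small were not tested against each other, and 1 or 2 genes more or fewer would change their order.

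**Figure D1:**
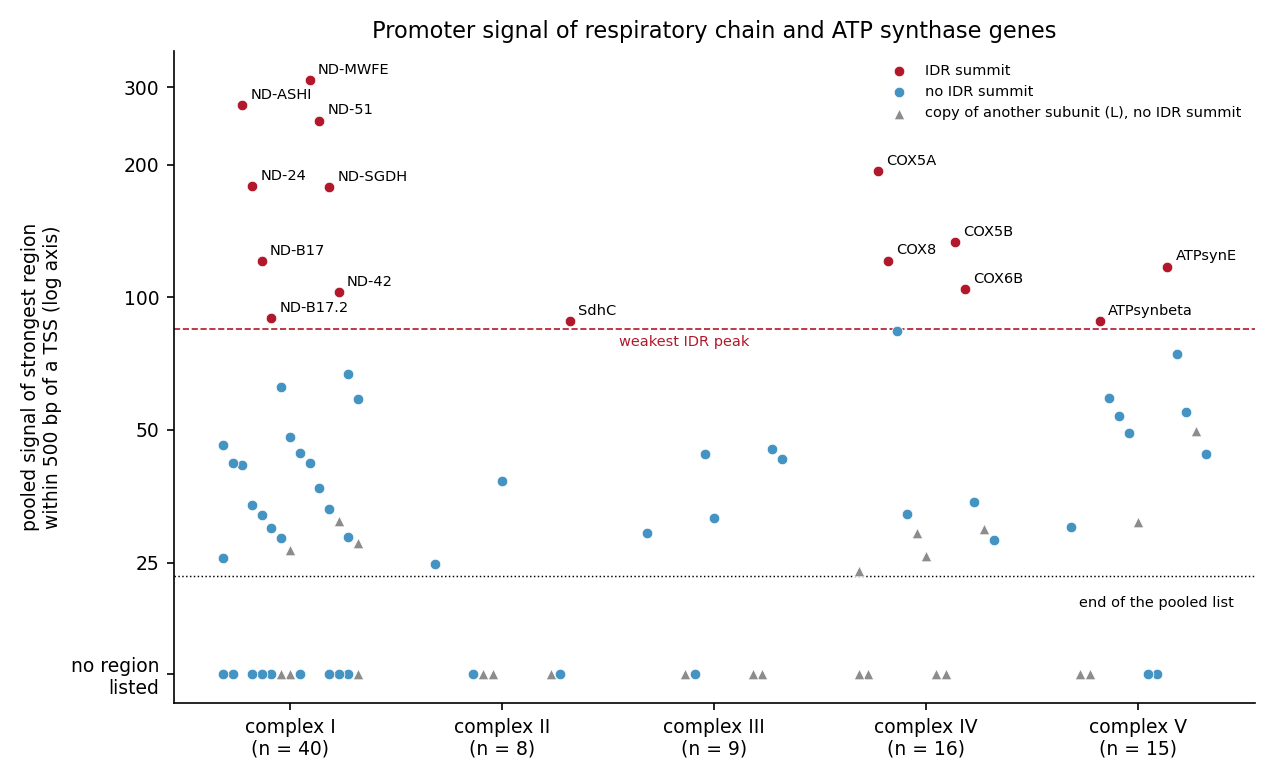
Pooled signal of the strongest region within 500 bp of a TSS for each of the 88 members, by complex, on a log axis; genes without a region are drawn at the bottom at a position that is no value. Red circles have an IDR summit, blue circles do not, grey triangles are copies named with an L, the dashed line is the weakest IDR peak (84.6) and the dotted line the end of the pooled list (23.3). The red points lie in complexes I, II, IV and V, none in complex III, and no triangle lies above 49.8.

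Complex I, the NADH dehydrogenase, had the 3 strongest peaks of the members. At ND-MWFE (FBgn0085468), a small subunit of the membrane arm, the pooled signal was 311, with 247 in replicate 2 and 65.1 in replicate 3. At ND-ASHI (FBgn0029888), an accessory subunit of the membrane arm, it was 273, 182 and 87.1, and ND-51 (FBgn0031771), the subunit that binds NADH and the flavin, had 252, 179 and 69.5. These peaks ranked 305, 406 and 478 of the pooled list, so none of them was among its very strongest regions, where signals reach 1965.

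ND-24 (FBgn0030853), the iron-sulfur partner of ND-51 in the NADH-oxidising module, had a pooled signal of 179 with 126 in replicate 2 and 58.5 in replicate 3. Both genes of the module's catalytic pair thus had an IDR summit. ND-SGDH, an accessory subunit of the membrane arm, followed with 178, 106 and 68.4, and ND-B17, another accessory subunit of that arm, with 121, 80.9 and 35.9. ND-42 and ND-B17.2, accessory subunits of the complex, were the weakest of the 8. ND-42 had 103, 69.1 and 37.5. ND-B17.2 had 89.7, 51.6 and 27.4. The core subunits ND-75, ND-49, ND-30, ND-23 and ND-20 had no IDR summit, and the largest of their pooled signals was 37.0 at ND-20.

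Below the threshold in complex I, ND-15 and ND-MNLL, both accessory subunits, were strongest. ND-15 had a pooled signal of 67.0, with 36.9 in replicate 2 and 25.8 in replicate 3, and ND-MNLL had 62.7, 47.2 and 16.4. A pooled region of any strength was listed at 28 of the 40 genes.

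Complex II, succinate dehydrogenase, had an IDR summit at SdhC only, among its 8 genes. The 8 include the assembly factor Sdhaf3, which is no subunit, and the copies SdhAL, SdhBL and SdhCL. SdhC (FBgn0037873) encodes a membrane anchor of the complex. It had a pooled signal of 88.3, with 71.6 in replicate 2. In replicate 3 the strongest region inside the peak had 15.8 and ranked 16387, and the strongest region near the TSS, 19.0, lay on the other side of the TSS, 448 bp downstream of it. The SdhC call thus rested on replicate 2. The other membrane anchor, SdhD, had a pooled region of 38.3 with 26.5 in replicate 2 and none in replicate 3, and the flavoprotein SdhA had 24.8 in the pooled list only. The iron-sulfur subunit SdhB had no region in any of the 3 lists.

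Complex III, the cytochrome bc1 complex, had a pooled region at 5 of 9 genes. UQCR-14 was highest with 45.3, and had 30.3 in replicate 2 and 14.2 in replicate 3. UQCR-Q had 44.1, with 18.2 in replicate 2 and 29.1 in replicate 3, so the replicates placed it at ranks 22359 and 4131. The large core proteins UQCR-C1 and UQCR-C2 had 42.9 and 29.3. All of these were far below the weakest IDR peak.

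Complex IV, cytochrome c oxidase, had 4 genes with an IDR summit, all nuclear subunits that surround the catalytic core. COX5A (FBgn0019624) had a pooled signal of 193, with 148 in replicate 2 and 47.2 in replicate 3. COX5B (FBgn0031830) had 133, 89.8 and 42.4. COX8 (FBgn0263911) had 121, 96.1 and 33.8. By rank within each list, all 3 stood higher in replicate 2 than in replicate 3, at 622 and 1673 for COX5A, 1569 and 2013 for COX5B and 1411 and 3089 for COX8. COX6B (FBgn0031066), on the side of the intermembrane space, had 104, 66.1 and 45.3, and ranked 2565 in replicate 2 and 1798 in replicate 3. COX7B lay just outside the threshold with 84.0, rank 3302, 57.6 in replicate 2 and 29.7 in replicate 3, while SdhC, ATPsynbeta and ND-B17.2 lay just inside it. The next of complex IV, COX7C, had 34.3, so COX7B alone stood close to the threshold.

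Complex V had 2 genes with an IDR summit, one in each part of the enzyme. ATPsynE (FBgn0038224), a small subunit of the membrane part, had a pooled signal of 117, with 78.3 in replicate 2 and 39.3 in replicate 3. ATPsynbeta (FBgn0010217), the catalytic subunit, had 88.5, 65.1 and 32.2. Although few passed the threshold, the median pooled signal of complex V, 53.8 over 11 genes with a region, was the highest of the 5 complexes, the others having 33.3 to 43.2. ATPsynF, of the membrane part, had 74.6 with 25.2 in replicate 2 (rank 11866) and 43.1 in replicate 3 (rank 1960). ATPsynC, which forms the rotating ring, had 59.0 with 34.6 and 27.9 in replicates 2 and 3.

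The position of the summits was compared with the TSSs of the members and of their neighbours. Of the 15 summits, 13 lay upstream of the member's closest TSS (86.7%), beside 87.5% of the IDR summits of all genes, and 2 lay in the 5′ UTR of the member, at ND-24 and ATPsynE. In all, 8 summits were intergenic, 4 intronic and 3 in a 5′ UTR, the third in that of Cchl. The COX5A summit, counted as upstream of the closest of 2 TSSs, lay inside the gene in an intron of COX5A. The median summit was 89 bp upstream of the member's TSS, and 8 of 15 (53.3%) lay within 100 bp of it, beside 35.4% for all genes. No peak was shared by 2 members.

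Nearly all of these peaks had TSSs on both strands within 500 bp of the summit. This held for 14 of the 15, beside 607 of 1616 (37.6%) of all IDR peaks at promoters. Counted by gene, a shared peak has more weight. Of the members with an IDR summit 93.3% had a divergent partner, an opposite-strand gene transcribed away from it, beside 65.6% of all such genes. With outermost TSSs only, 10 of the 15 had a partner, beside 59.0% of all genes with an IDR summit. The member's TSS was nearest in 8 peaks and a neighbour's in 7, so with whole-embryo ChIP-seq the peak cannot be given to one gene of the pair. The strongest, chr2R:13158390-13158590, had its summit 170 bp upstream of ND-MWFE and 51 bp from the TSS of TppII, a large peptidase, in an intron of which it lay. The ND-ASHI peak, chrX:6679257-6679473, was 233 bp upstream of ND-ASHI and 289 bp from Fum1, which encodes fumarase of the citric acid cycle. The ND-51 peak, chr2L:6062628-6063063, was intergenic, 89 bp upstream of ND-51 and 143 bp from CG13994.

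The neighbours were of many kinds. Next to COX5A was glo, an RNA-binding protein, with its TSS 111 bp from the summit and the member's at 68 bp. ND-24 shared its peak with corolla, a protein of the synaptonemal complex, at 96 bp. ND-42 shared its peak with Cchl, which attaches heme to cytochrome c, and the summit was 58 bp from Cchl and 337 bp from ND-42. Fum1 and Cchl thus were neighbours that themselves work in mitochondria.

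ND-MWFE and ND-42 were among the 7 members whose peak was nearer to a neighbour. For the other members of that kind, the summit was 61 bp from Tctp and 337 bp from SdhC, 36 bp from IFT52 and 262 bp from COX5B, and 121 bp from CG11076 and 388 bp from ATPsynbeta. The ATPsynbeta peak, chr4:1030878-1031313, was the farthest from its member and lay in an intron of CG11076. Arpc5, an actin nucleation subunit, was at 50 bp and ND-B17.2 at 70 bp. At COX6B, whose TSS CG18809 shares, Rpp20 and CG33932 were at 33 bp and COX6B at 63 bp. Of the 8 peaks nearer to the member, the widest gaps between the genes' distances were at COX8 at 31 bp against VhaM9.7-b, a proton pump subunit, at 384 bp, ATPsynE at 26 bp against Afti at 284 bp, and ND-SGDH at 62 bp against RhoGAP68F at 222 bp. ND-B17 was the exception, since its only neighbour within 500 bp was a small nuclear RNA gene, snRNA:U5:35D, and the summit was 132 bp upstream of ND-B17.

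**Figure D2:**
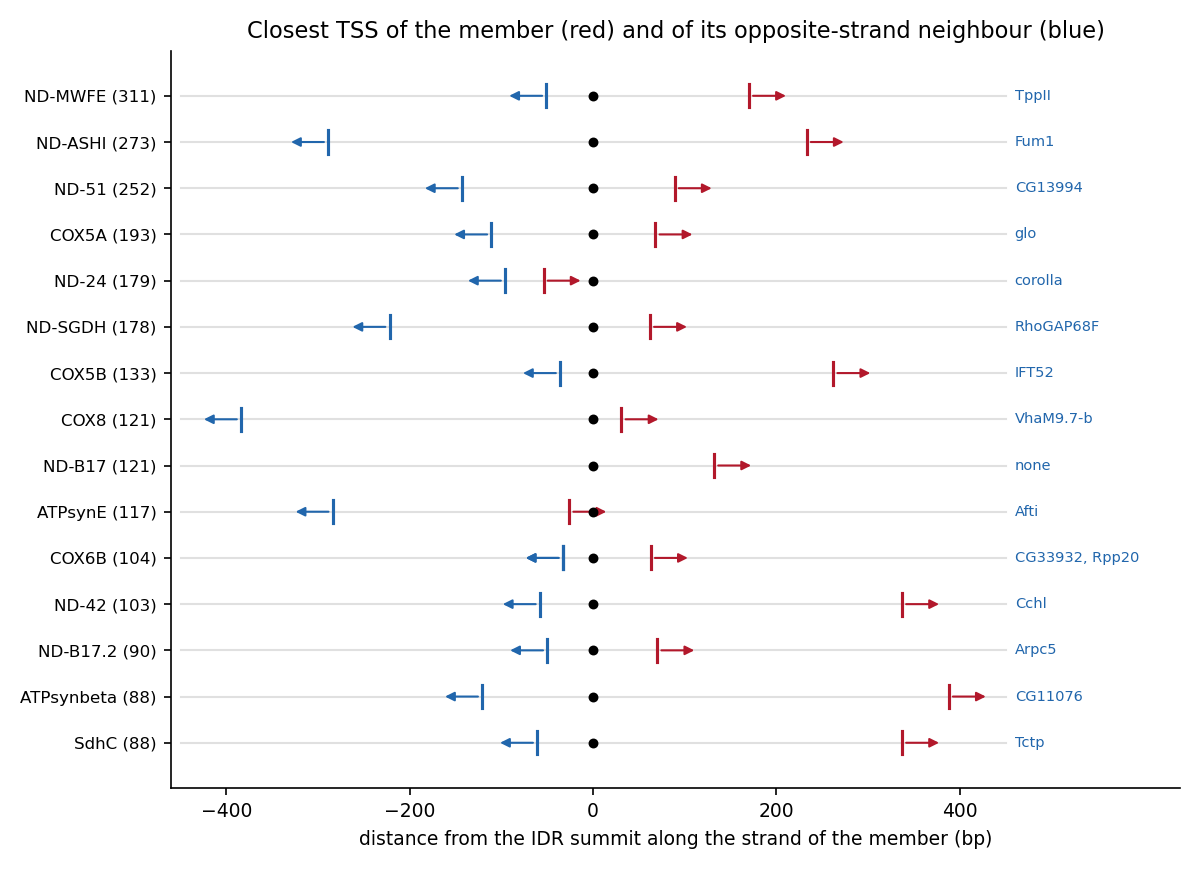
The 15 IDR peaks at members, ordered by pooled signal (rounded, in parentheses), with the summit (black) at 0 and distance in bp along the member's strand. Red marks the member's closest TSS and blue that of the neighbour on the opposite strand, named at the right, and arrows give the direction of transcription; in 14 rows the arrows point away from each other, and ND-B17 has no such protein-coding neighbour.

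This arrangement was then counted for all members, a count chosen after the peaks were seen. A gene has a divergent partner here if a protein-coding gene on the opposite strand, transcribed away from it, has a TSS within 1000 bp upstream of one of its own. Of the 88 members 44 (50%) had a partner, beside 36.2% of all genes. With a partner, 14 of 44 members had an IDR summit (31.8%), beside 27.0% of all 5052 genes with one. Without a partner, ND-B17 was the only 1 of 44 (2.27%), beside 8.04% of all 8893 genes without one. The difference between the arrangements was thus in the same direction in members and in all genes, and in both a peak counts for each gene of a pair.

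**Figure D3:**
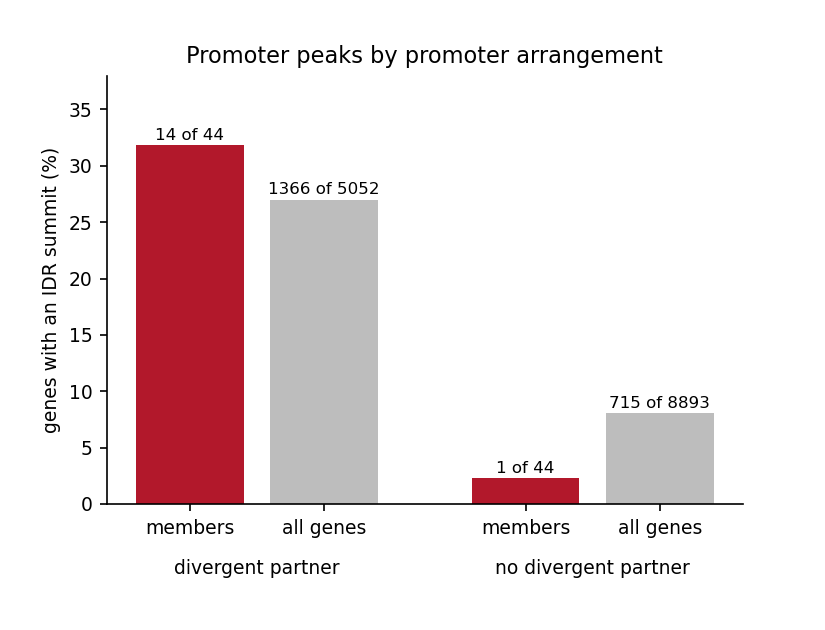
Percent of genes with an IDR summit within 500 bp of a TSS, for members (red) and all protein-coding genes (grey, members included), split by whether a divergent partner lies within 1000 bp; counts stand above the bars. Bars with a partner reach 31.8% and 27.0%, those without 2.27% and 8.04%.

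The replicates were compared over the members with a region in both lists. There were 38 of these. Across genes Spearman's rho was 0.69 and Pearson's r on the log2 scale 0.79, beside 0.74 and 0.83 over 5396 genes. The strongest region was taken in each list alone, so a gene's 2 values can come from different regions, as at SdhC, ND-20 and ND-49. The correlations thus compare promoters and not matched peaks. Genes of 1 library are not independent, and the depth of the libraries is unknown. The 2 lists have separate scales, and the median ratio of the replicate 2 value to the replicate 3 value was 1.86 at members and 1.69 at all genes. At the 15 members with an IDR summit this ratio ranged from 1.46 at COX6B to 3.79 at ND-MWFE. For SdhC the replicate 3 value came from a region outside the IDR peak. Inside that peak SdhC had 71.6 in replicate 2 and 15.8 in replicate 3, a higher ratio than at ND-MWFE. Among the 3265 strongest regions of replicate 2 alone, 15 members had a promoter summit (17.0%; all genes 15.0%), and in replicate 3 alone 13 had one (14.8%; all genes 14.1%). Of the 15 IDR members, 14 were in the first set and 12 in the second. ND-B17.2 was missing from both, SdhC and ATPsynbeta from that of replicate 3, while COX7B entered with replicate 2 and ATPsynF with replicate 3.

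**Figure D4:**
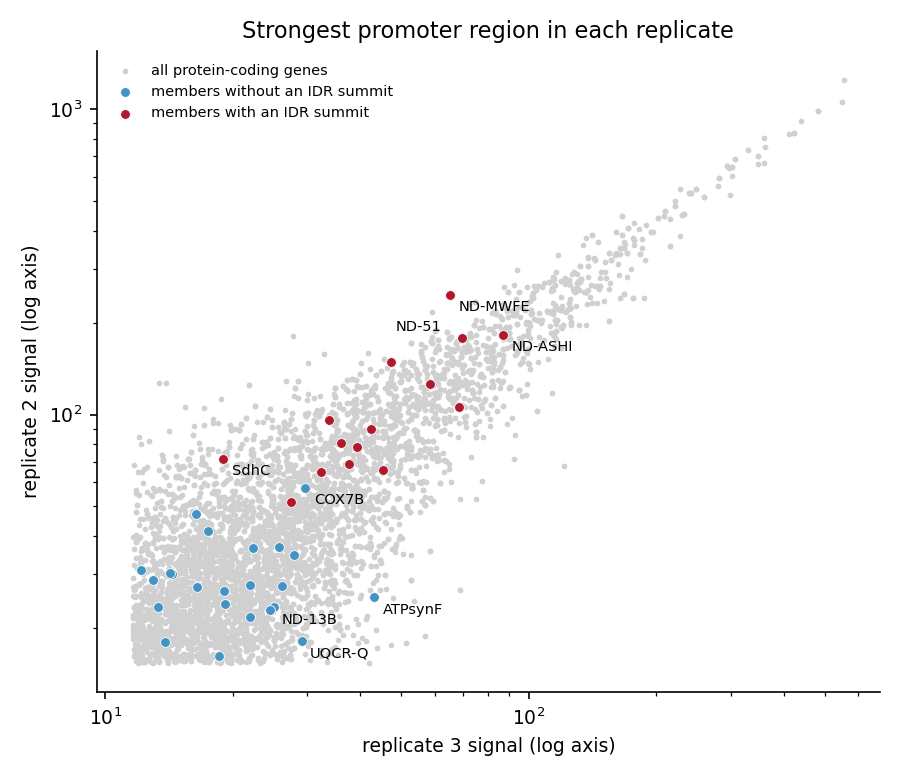
Signal of the strongest region within 500 bp of a TSS in replicate 3 (x) and replicate 2 (y), both on log axes, for all protein-coding genes (grey), members with an IDR summit (red) and other members (blue); genes without a region in both lists are not drawn. Red points fill the upper right of the members, SdhC lies to the left of them with 19.0 in replicate 3, and ATPsynF and UQCR-Q lie to the lower right. The 2 values of a gene can come from different regions, as at SdhC.

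The duplicated subunits were compared as pairs of a symbol and the same symbol with L. There were 20 pairs with 18 parents and 20 copies. An IDR summit was found at 5 of 18 parents (27.8%) and at none of the 20 copies, beside 14.9% of all genes. Of the 20 copies 17 had no divergent partner, and among all genes without one the share was 8.04%. Of the 18 parents 11 had a partner, and among all genes with one the share was 27.0%. The excess of the parents over all genes depended on the distance and on sharing: within 250 bp 2 parents had a summit (11.1%), beside 11.8% of all genes, and by nearest gene 2 (11.1%), beside 11.0%. No copy had one in either setting. The 5 parents were ND-24, ND-51, SdhC, COX5B and ATPsynbeta. A further 4 copies, COX6AL, COX6AL2, COX6CL and ATPsynepsilonL, have a parent under another symbol, and none of these had an IDR summit either. Any pooled region was listed at 9 of the 24 copies and at 50 of the 64 members that are not copies (78.1%), beside 51.1% of all genes. The 64 members that are not copies had 15 IDR summits (23.4%, beside 14.9% of all genes). Leaving out the copies took out only genes without an IDR summit, while such copies stay among all genes. By nearest gene 8 of the 64 had a summit, beside 11.0% of all genes. A divergent partner was present at 62.5% of the 64, beside 36.2% of all genes.

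At ND-51 the pooled signal was 252, while ND-51L2 had 27.7 and ND-51L1 no region in any list. For ND-24 it was 179, and ND-24L had only a weak region of 11.9 in replicate 3. COX5B had 133 and COX5BL none in any list. The closest contrast among parents with an IDR summit was ATPsynbeta at 88.5 and ATPsynbetaL at 49.8, the strongest of all copies, with 26.5 in replicate 2 and 19.1 in replicate 3. SdhC had 88.3 and SdhCL none.

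Over the 20 pairs, 6 had a pooled region at both genes, 10 at the parent only, 1 at the copy only and 3 at neither. In 5 of the 6 the parent was higher: ND-51 over ND-51L2, ATPsynbeta over ATPsynbetaL, ND-20 (37.0) over ND-20L (26.7), COX4 (32.2) over COX4L (29.8) and COX7A (28.1) over COX7AL (23.9). COX7AL2, the second copy of COX7A, was the exception with 29.2. The parents with a region where the copy had none were, besides ND-24, COX5B and SdhC, ATPsynCF6 (53.8), UQCR-14 (45.3), COX7C (34.3), UQCR-6.4 (31.5), ND-49 (28.4) and SdhA (24.8), with ND-51 for its copy ND-51L1. The copy ND-B14.5AL had 31.1 with none at its parent ND-B14.5A. The pairs of ATPsynG, SdhB and UQCR-11 had no pooled region at either gene.

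A divergent partner was found at 11 of 18 parents (61.1%) and 3 of 20 copies (15%), beside 36.2% of all genes. The median distance to the nearest IDR summit was 6737.5 bp for parents, 27923 bp for copies and 10589 bp for all genes. Whether the arrangement has a part in the difference in peaks was not tested. Whether reads were divided between near-identical copies was not tested, and the aligner is not given. Among the 20 pairs, only COX7C and COX7CL shared a run of 25 bases within 500 bp of their TSSs. These 2 genes lie next to each other with TSSs 867 bp apart, so their windows overlap on the chromosome and their values are uncertain. Other parts of the genome and the 4 further copies were not compared.

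**Figure D5:**
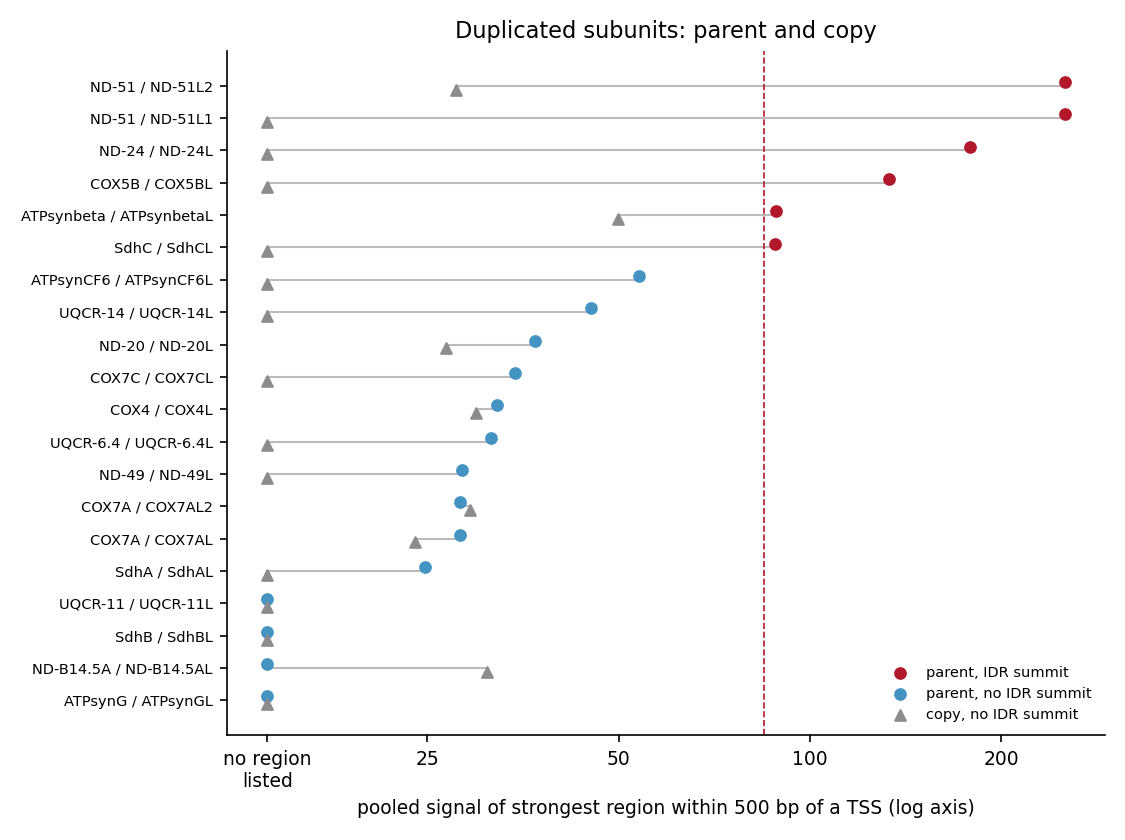
Pooled signal of the strongest region within 500 bp of a TSS for the parent (circle, red with and blue without an IDR summit) and the copy (grey triangle) of 20 pairs, on a log axis, with genes without a region at the left at a position that is no value; the dashed line is the weakest IDR peak. No triangle lies to the right of the line, and 6 rows (5 parents, ND-51 with 2 copies) have a red circle.

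Positions were also counted below the threshold. The strongest pooled summit lay within 100 bp of a TSS at 7 of 9 such genes of complex V and 4 of 5 of complex III, and at 6 of 20 of complex I, 1 of 8 of complex IV and neither of the 2 of complex II, beside 34.9% of all genes with a pooled region and no IDR summit. These counts are small and were not tested. Of the 44 such members, 23 had the summit upstream of the TSS (52.3%), beside 58.1% of all such genes.

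Motifs were searched on both strands in the 15 summit windows and in the promoters of all 88 members, from 250 bases before to 50 bases after the outermost TSS. The CRE, TGACGTCA, was found in none of the 15 windows and none of the 88 promoters, beside 0.619% of 1616 IDR promoter peaks and 0.437% of 13945 promoters. TATAAA was found in 6 windows, beside 32.0% of the 1616, and at ND-ASHI its centre was 4.5 bp from the summit. The DRE was found in 2 windows, those of SdhC and ATPsynE shown above, 21.5 and 80.5 bp from the summit, beside 7.24%. CAACACTG was found in 2 windows, at COX5A and COX6B, beside 5.75%, and the E-box in 1, at ND-51, beside 12.7%. None of the 15 held the M1BP motif GGTCACACT, the NRF-1 motif GCGCATGC, GAGAGAG or CACAGTGG, and 5 windows held none of the motifs searched.

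In the promoters of the members the M1BP motif, a core promoter element, was in 15 of 88 (17.0%), beside 6.05% of all promoters, and 4 of these 15 had an IDR summit. The DRE was in 9 promoters (10.2%, beside 9.36% of all promoters). None of these 9 genes, ND-15 and ND-MNLL among them, had an IDR summit. The share with an IDR summit over all genes with either motif was not counted, and 9 and 15 genes are few. The DRE at the ATPsynE and SdhC summits lay outside the window at the outermost TSS. That of ATPsynE was centred 14.5 bp upstream of another TSS of the gene. TATAAA was in 55.7% of member promoters and 45.8% of all, but within 100 bp on each side of each TSS the order turned, to 31.8% and 34.1%. The E-box was in 23.9% and 17.7% of the promoters and in 29.5% and 17.4% of the windows around each TSS, and NRF-1 in none and 1.05% of the promoters. GC content was 35.0% ± 6.44 (SD, n = 88) in the members' promoters and 39.1% ± 7.74 (SD, n = 13945) in all promoters, which bears on motifs made of A and T.

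Other genes of the respiratory chain, of mitochondrial gene expression and of further mitochondrial tasks have symbols that the prefixes do not take. From a list of 33, 28 were matched outside the members, with sesB, Ant2, porin and Marf among the further ones. Of these 28, 5 had an IDR summit (17.9%, beside 14.9% of all genes) and 18 any pooled region, with a median signal of 43.4. Cyt-c-d, a cytochrome c of the male germ line, had the highest with 299.8, 181 in replicate 2 and 114 in replicate 3. That summit lay 391 bp downstream of the Cyt-c-d TSS, and the TSS of CG31808 was nearer to it. Cox17, a copper chaperone of complex IV, had 169.8, 131 and 47.2. The complex IV subunit levy had 153, 116 and 41.0 and shared its peak with wmd, whose TSS was nearer to the summit, and blw, the alpha subunit of the ATP synthase, had 142, 106 and 35.6. PolG2, a subunit of the mitochondrial DNA polymerase, had 104, 89.3 and 20.6. It shared its peak with Polr2C and with GatC, whose TSS was equally near to the summit. With blw and ATPsynbeta, the genes for the alpha and beta subunits of the catalytic head both had an IDR summit. Cyt-c-p, the cytochrome c of somatic tissues, had 69.3, below the threshold, and the complex III subunits RFeSP and ox had 27.8 and 34.6, so complex III had no IDR summit there either.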

How the data were processed

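ChIP-seq peak lists of 1 group, biological replicates 2 and 3 of Atf-2-GFP embryos, were used as deposited on dm6. The signal per region is the authors' own. Which aligner, peak caller and IDR cutoff they used is not given in the sources used here. Depth is unknown, so no counting interval is given. Per the labels' protocols chromatin was sonicated to fragments of 200 to 800 bp. Summits were read against the Ensembl release 115 annotation and the Release 6 sequence with Python 3.11.15, pandas 2.3.3, numpy 2.4.6, scipy 1.17.1 and matplotlib 3.10.9; coordinates count from 1. The promoter call was checked on simulated summits, where 200 of 200 planted genes were recovered.

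Members, gene lists and motifs were chosen with earlier results of these data known, so shares stand beside the background without tests. Named were every member with an IDR summit, the next 2 per complex, all duplicated pairs, neighbours sharing a peak and listed non-members with an IDR summit; SdhD, UQCR-C1, UQCR-C2, the core subunits of complex I, Cyt-c-p, RFeSP and ox were in part added after their values were seen. The divergent-partner count was added after seeing the data. Alternatives covered distance, TSS choice, nearest gene, list length and each replicate alone.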

Additional observations from a re-analysis of the deposited data

How the results depend on the processing

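The 15 members with an IDR summit (17.0%; all genes 14.9%) became 8 (9.09%) when only the nearest gene counted, beside 1538 of all genes (11.0%), 7 (7.95%) in the stronger 1632 IDR peaks, beside 1154 (8.28%), and 23 (26.1%) among 6530 pooled regions, beside 3424 (24.6%). Members lay below all genes in the first and the second of these settings, and at 1000 bp (17.0% beside 17.3%). Complex I (8) had 5 by nearest gene and 5 in the stronger peaks. Complex II (1) had 0 at 250 bp, 0 by nearest gene and 0 in the stronger peaks. Complex IV (4) had 2 by nearest gene and 2 in the stronger peaks. Complex V (2) had 1 at 250 bp, 1 by nearest gene, 0 in the stronger peaks and 6 among 6530 regions. Parents (5) had 2 at 250 bp (11.1%; all genes 11.8%), 2 by nearest gene (11.1%; all genes 11.0%) and 3 in the stronger peaks. The stronger and longer lists hold fewer and more regions by construction. With 1 replicate alone, members numbered 13 to 15, parents 3 to 5, and complex II 0 to 1, the lower values without replicate 2, where SdhC is lost. Counting genes with no region as 0 moved the median pooled signal from 44.1 to 31.0 for members and from 51.4 to 24.1 for all genes, so their order turned. Copies and complex III had 0 under each alternative run. Symbols without regard to case added 1, in complex IV. Members with a divergent partner numbered 39 within 500 bp, beside 27.4% of all genes, and 37 with outermost TSSs only, beside 33.3%. Of the 15 members with an IDR summit, 14 had a partner within 500 bp, beside 56.2% of all genes with an IDR summit. With outermost TSSs only 10 of the 15 had one, beside 59.0%, so the 2 shares lay closer together. With the window 100 bp on each side of each TSS, TATAAA fell to 31.8% of members, beside 34.1% of all genes, the E-box was in 29.5%, beside 17.4%, and CACAGTGG went from 1.14% to 0%. The members called under all 8 alternatives on distance, TSS, list and replicate were ND-24, ND-51, ND-ASHI, ND-SGDH and COX5A. No paired analysis was possible because there is 1 group and no test. Depth is unknown and limits what weak regions can show.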
